A study of Mus musculus with 24 samples.

Results

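The comparison described here is that of gonadectomised with intact male mice lacking Prkar1a in the adrenal cortex. Its members are 8 of the series' 24 arrays, chosen by their labels: 4 arrays titled KO GDX and 4 from intact KO males. Each array holds RNA of a whole adrenal gland, on an Affymetrix mouse gene array. The mice of both groups were XY, 7 months old and of a mixed sv129 and C57Bl/6 strain. All 8 carried the genotype Prkar1afl/fl;cre/+;mTmG/mTmG, that is, floxed Prkar1a on both alleles, Cre recombinase in 1 copy of the Cyp11b2 locus, and a fluorescent reporter of Cre activity. The GDX mice had been gonadectomised for the last 2 months, and the intact mice had not. The other 4 groups, of 4 arrays each and also from mice 7 months old, are WT and KO females and WT males, intact or gonadectomised. The female groups are named here by their titles, without a detailed genotype. WT intact males had floxed Prkar1a and no Cre, whereas 1 WT GDX male had neither a floxed allele nor Cre, 2 had Cre without a floxed allele and 1 had Cre with 1 floxed allele. The WT male groups therefore differ from one another in genotype as well as in gonads, and the KO male groups do not differ in genotype.

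Prkar1a encodes the type I alpha regulatory subunit of protein kinase A, the brake on the enzyme that cyclic AMP releases, and Cyp11b2 encodes aldosterone synthase, the enzyme of the outer cortical zone, the zona glomerulosa. Cells that have expressed Cyp11b2 move inward and become cells of the zona fasciculata, where glucocorticoid is made, so Cre driven from this locus acts on both zones. The mouse adrenal is also shaped by gonadal hormones: the X-zone, an inner cortical layer of fetal origin, regresses in males at puberty under androgen and is kept in virgin females. The comparison asks what removal of the testes, and of the androgen they make, does to the mutant male gland.

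The 14411 genes tested had log2 signals over 5 in at least 4 of the 24 arrays. Array medians lay between 5.20 and 5.29, and Pearson's r between KO GDX arrays, across genes, was 0.975 to 0.992. In the principal components of the 8 KO arrays the first carried 49.0% of the variance and placed the intact males at -24.9 to -11.8 and the GDX males at 6.98 to 23.8, with GDX array 1 nearest to the intact males. Cortical markers stood high in both groups, from 10.08 for Nr5a1 in intact males to 13.10 for Star, the cholesterol carrier of steroid synthesis, in GDX males. Markers of the medulla were as plain, from 9.36 for Pnmt, which makes adrenaline, to 12.34 for Chgb, a protein of secretory granules. Genes of capsule, endothelium, macrophages and fat were also read (group means 6.39 to 11.28 over 11 markers), so the gland was not free of other cells. The T cell marker Cd3e was near the detection level, at 4.78 in intact and 4.82 in GDX males. Signals of different genes are not comparable in level on such arrays, and all values below are log2 signals or log2 differences. With 4 arrays a group the number of arrays limits the precision. The p-values set each difference against the spread between arrays within groups, pooled over all 24 arrays of the series. Where a gene lies in a cell type of its own, fewer such cells and less RNA per cell cannot be told apart in a whole gland.

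The deleted gene was read first. Prkar1a stood at 6.89, 8.08, 8.47 and 8.13 in intact KO males and at 7.99, 7.66, 7.30 and 7.45 in KO GDX males. The groups overlapped, and the difference was -0.29 ± 0.23 (log2 ± standard error, limma adjusted p 0.414). In KO GDX males Prkar1a was lower than in WT GDX males by 1.19 ± 0.23 (adjusted p 0.00477), whereas intact males differed from WT by -0.92 ± 0.23, short of the threshold (adjusted p 0.16), with intact KO array 1 the lowest. Whether the probe set reads the deleted part of the gene is not known here. Cyp11b2, whose locus carries Cre in both groups, was at 9.91, 11.09, 10.69 and 10.40 in intact and 10.55, 9.89, 10.37 and 10.13 in GDX KO males (-0.29 ± 0.36, adjusted p 0.64). Neither gene separated the groups.

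Gonadectomy of KO males changed 2225 genes, 15.4% of those tested, at a Benjamini-Hochberg adjusted p of 0.05 in limma. Of these, 987 rose (6.85%) and 1238 fell (8.59%), and 155 changed at least 2-fold, 121 of them upward. The median change over all genes was -0.01 and the median size among the called genes 0.39. In 2731 genes (19.0%) every GDX array lay on the same side of every intact array, and 1735 of the called genes were among these. The count depended on single arrays: it was 1374 without GDX array 3, 1409 without intact array 2 and 1461 without intact array 3. It was 989 with the mean of the medullary genes as a covariate, of which 962 were among the 2225.

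The largest rises and falls below are those of named genes whose arrays did not overlap between the groups. Among the 3 largest rises were 2 enzymes that reduce steroids. Akr1d1, steroid 5-beta-reductase, which inactivates steroid hormones and belongs to bile acid synthesis in liver, was at 4.13, 4.55, 5.36 and 7.99 in intact KO males and at 11.35, 11.33, 11.58 and 11.67 in KO GDX males. The GDX arrays lay together and far above the intact ones, of which array 4 was the highest. The difference was 5.98 ± 0.69, or 63.0-fold (adjusted p 1.83e-05), and 5.52 to 6.81 over the alternatives, the highest being without intact array 4. With intact arrays 1 and 2 under 5 the fold is uncertain. It was close in size to the 5.91 ± 0.69 in WT males (difference of effects 0.07 ± 0.98, adjusted p 0.993). Akr1c18, 20-alpha-hydroxysteroid dehydrogenase, the enzyme that inactivates progesterone and marks the X-zone, was at 10.90, 6.57, 6.36 and 10.96 in intact and 12.62, 12.76, 12.68 and 12.75 in GDX KO males. The intact KO males thus fell apart, arrays 1 and 4 standing far above arrays 2 and 3, while the GDX males lay close together. Akr1c18 rose by 4.00 ± 0.73 (adjusted p 0.00107; 3.22 without intact array 3 to 4.76 without intact array 4) in KO and by 8.11 ± 0.73 in WT males, whose intact mean of 4.26 is under the detection level. The difference of these effects, -4.10 ± 1.04, did not pass the test (adjusted p 0.181). WT females were at 11.98 for Akr1d1 and 11.12 for Akr1c18. Thrb, the thyroid hormone receptor beta, also an X-zone gene, was at 7.91, 7.68, 7.79 and 8.29 in intact and 9.02, 8.99, 9.06 and 9.14 in GDX KO males, without overlap. It rose by 1.14 ± 0.16 (adjusted p 0.000126), against 1.10 in WT males. Of the X-zone genes, 2 of the 3 listed were tested. Both rose in KO males, where 6.85% of all genes rose, and in WT males, where 1.94% did.

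**Figure D1:**
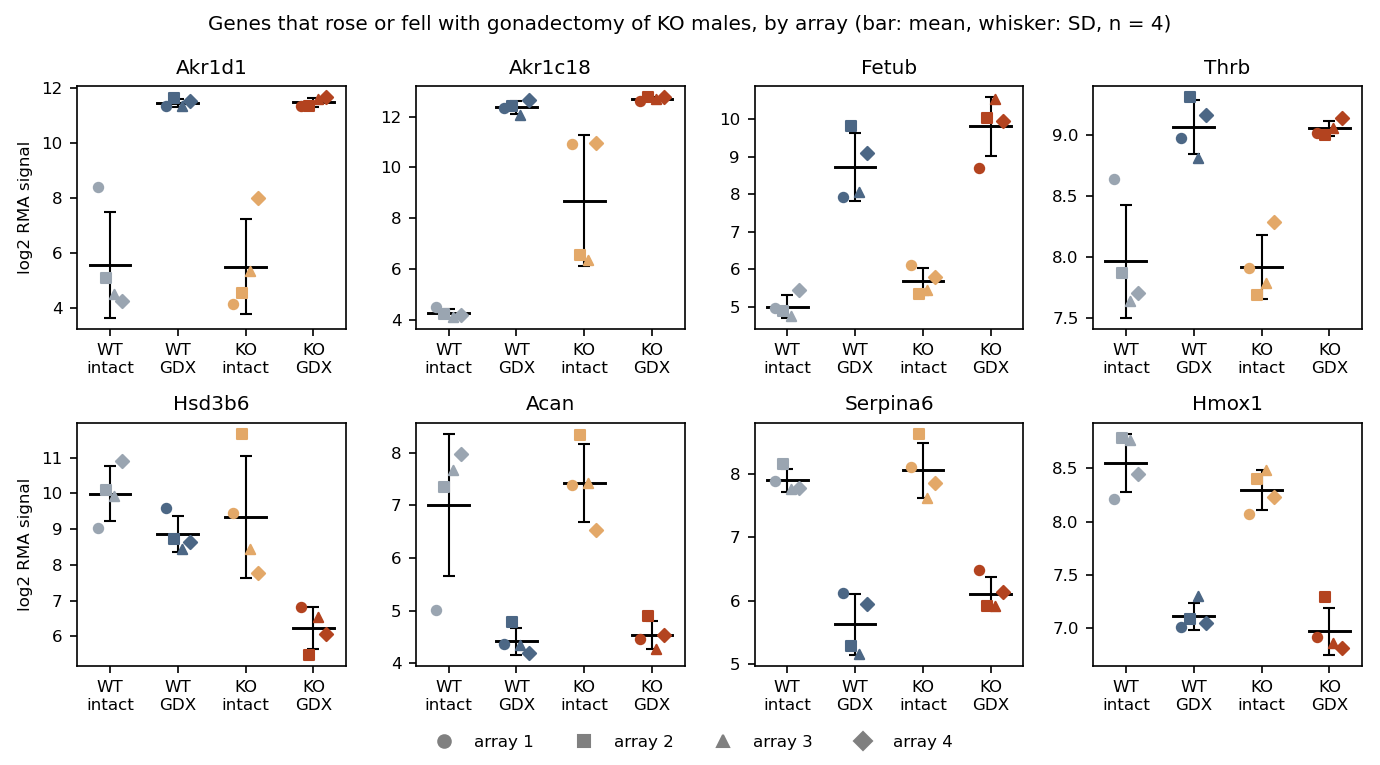
Log2 RMA signal (vertical axis, a separate scale for each gene) in each of the 4 arrays of WT intact, WT GDX, KO intact and KO GDX males, for 4 genes that rose (upper row) and 4 that fell (lower row) in KO males; bars are means, whiskers SD, n = 4. Akr1d1 lay between 11.33 and 11.67 in KO GDX males, and intact KO males split for Akr1c18, with arrays 1 and 4 at 10.90 and 10.96 and arrays 2 and 3 at 6.57 and 6.36.

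The rest of the 15 largest rises were in genes of varied function. Fetub, fetuin-B, a secreted protease inhibitor, was at 6.12, 5.35, 5.44 and 5.80 in intact and 8.69, 10.03, 10.53 and 9.95 in GDX KO males, with GDX array 1 the lowest of its group. It rose by 4.12 ± 0.41, or 17.4-fold (adjusted p 4.25e-06). Serpinb1a, an inhibitor of neutrophil proteases, rose by 3.54 ± 0.54, Cd1d1, which presents lipid antigens, by 2.98 ± 0.38, and Mme, the peptidase neprilysin, by 2.91 ± 0.45. Car8, a protein related to the carbonic anhydrases, rose by 2.89 ± 0.35, with intact arrays at 5.87 to 6.23 and GDX arrays at 8.82 to 9.34. Frzb, a secreted inhibitor of WNT signalling, rose by 2.55 ± 0.31, Ajap1, a protein of cell junctions, by 2.50 ± 0.31, and Cdca7l by 3.23 ± 0.51. Cyp2f2, a cytochrome P450, rose by 2.48 ± 0.56, while its second probe set, dimmer, differed by 0.15. Intact array 1 was at 6.00 for the brighter probe set and the other intact arrays at 4.68 to 4.83, under 5. The size of the Cyp2f2 rise is therefore uncertain (1.31 to 2.79 over the alternatives). Obp2a (3.71 ± 0.76), Spry3 (2.78 ± 0.29), Hamp (2.57 ± 0.82), the gene of hepcidin, and Bpifc (3.14 ± 0.30) were under log2 5 in all 4 intact KO males, so the size of these 4 rises is uncertain. Hamp was also the one of the 15 that lost its call under some alternatives, among them without any one of 7 of the 8 KO arrays. Of the 15 rises, 12 were called upward in WT males too (1.94% of all genes were), and 13 were higher in WT females than in WT intact males (3.73% of all genes were).

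The largest fall was in Hsd3b6, a 3-beta-hydroxysteroid dehydrogenase of the zona glomerulosa. It was at 9.46, 11.67, 8.46 and 7.78 in intact and 6.83, 5.49, 6.55 and 6.06 in GDX KO males. The groups did not overlap, but intact males spread from 7.78 to 11.67, and array 2, the highest intact male, also held the highest Cyp11b2 of the 8. Hsd3b6 fell by 3.11 ± 0.60 (8.63-fold, adjusted p 0.00165), between 2.33 (without intact array 2) and 3.63 (without intact array 4) over the alternatives. In WT males it went from a mean of 9.99 to 8.85, a difference of -1.14 ± 0.60 that did not pass the test (adjusted p 0.337). Acan, aggrecan, a proteoglycan of cartilage matrix, was at 7.38, 8.35, 7.43 and 6.54 in intact and 4.46, 4.91, 4.27 and 4.54 in GDX males, all GDX arrays being under 5. Its fall of 2.88 ± 0.43 (adjusted p 0.000175) is thus uncertain in size. Aldh1a1, which makes retinoic acid from retinal, was at 12.02, 12.24, 11.74 and 10.00 in intact and 8.98, 9.90, 8.29 and 8.14 in GDX KO males. It fell by 2.67 ± 0.53 (adjusted p 0.00194), and intact array 4 lay just above GDX array 2.

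Other large falls included Ly6d (-2.58 ± 0.44), a small lipid-anchored surface protein, and Serpina6, which encodes corticosteroid-binding globulin, the carrier of glucocorticoid in blood. Serpina6 was at 8.12, 8.63, 7.63 and 7.86 in intact and 6.49, 5.92, 5.92 and 6.14 in GDX KO males. It fell by 1.94 ± 0.24 (adjusted p 2.76e-05) and in WT males by 2.27 ± 0.24. Hmox1, heme oxygenase, was at 8.07, 8.4, 8.48 and 8.23 in intact and 6.92, 7.29, 6.86 and 6.81 in GDX KO males, tight groups with a gap between them. It fell by 1.32 ± 0.16 (adjusted p 2.76e-05), against 1.44 ± 0.16 in WT males. Susd3 (-1.80 ± 0.30), Nt5e (-1.78 ± 0.37), which makes adenosine from AMP outside the cell, H2-M2 (-1.74 ± 0.34), a class I histocompatibility gene, Alpl (-1.44 ± 0.30), tissue-nonspecific alkaline phosphatase, and the potassium channel gene Kcnk1 (-1.46 ± 0.21) fell as well. So did Trank1 (-1.34 ± 0.21), the homeobox gene Hhex (-1.23 ± 0.23) and the sialyltransferase gene St6galnac2 (-1.18 ± 0.19). Of the 15 largest falls, 9 were called downward in WT males (2.55% of all genes were), and 11 were lower in WT females than in WT intact males (4.02% of all genes were). All 15 kept their call under each of the 17 alternatives. These refit the same arrays from which the 15 were picked, so they are no independent test.

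The bases before the start of the gene are given for the largest rise and the largest fall, since both encode enzymes that act on steroids. They were taken from RefSeq for GRCm38.p6, 300 bases in all, most of them before the start and a few after it. Capitals mark TGTTCT or its reverse complement AGAACA, a half-site bound by steroid receptors such as the glucocorticoid receptor, and AAGGTCA or TGACCTT, a site bound by the steroidogenic factor Nr5a1; neither overlaps the other. Akr1d1 lies at chr6:37529923-37530222 on the plus strand and Hsd3b6 at chr3:98814394-98814693 on the minus strand.
Akr1d1: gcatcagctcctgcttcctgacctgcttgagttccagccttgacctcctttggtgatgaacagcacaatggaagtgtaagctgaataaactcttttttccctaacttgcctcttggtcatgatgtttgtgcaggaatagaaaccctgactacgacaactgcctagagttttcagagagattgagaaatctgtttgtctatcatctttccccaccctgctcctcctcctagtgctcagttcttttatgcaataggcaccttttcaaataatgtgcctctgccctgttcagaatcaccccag
Hsd3b6: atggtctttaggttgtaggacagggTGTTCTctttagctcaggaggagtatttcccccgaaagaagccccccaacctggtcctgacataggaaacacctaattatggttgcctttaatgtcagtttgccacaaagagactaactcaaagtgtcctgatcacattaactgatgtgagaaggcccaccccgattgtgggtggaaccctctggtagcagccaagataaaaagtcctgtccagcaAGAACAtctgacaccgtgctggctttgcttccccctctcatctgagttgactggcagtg
Hsd3b6 held 2 half-sites and no Nr5a1 site, and Akr1d1 held 0 of either in this window. Of all 32851 promoters of this length, 19.0% held a half-site and 4.72% an Nr5a1 site. Of the 11 large rises with a promoter in the table, 3 held a half-site and 1 an Nr5a1 site; of 10 large falls, 1 held each.

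The gonadectomy of WT males shares no array with that of KO males. In WT males 648 genes were called (4.5%), 280 upward (1.94%) and 368 downward (2.55%). In KO males 6.85% of all genes rose and 8.59% fell, the shares to set beside the overlaps. Of the 280, 185 also rose in KO males and 0 fell, which is 66.1% of the WT list and 18.7% of the KO rises. Of the 368, 216 also fell in KO males and 0 rose, 58.7% of the WT list and 17.4% of the KO falls. The median change in KO males was 0.48 for the WT rises and -0.35 for the WT falls. Conversely, 858 of the 987 KO rises and 1128 of the 1238 KO falls had the same sign in WT males, where their medians were 0.18 and -0.18. Alone, with no other groups to lend an estimate of spread, the WT males gave 149 calls and the KO males 1677, and the WT count was lower without WT intact array 2 (386), 3 (306) or 4 (292) or WT GDX array 2 (313) or 3 (355).

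**Figure D2:**
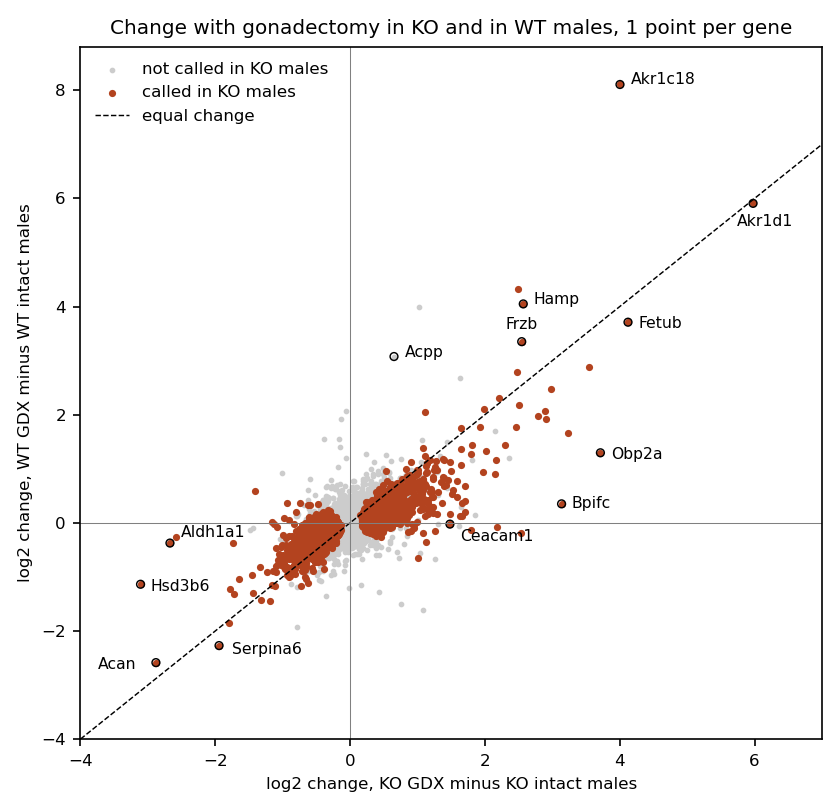
Log2 change with gonadectomy in KO males (horizontal axis) and in WT males (vertical axis), 1 point per gene over the 14411 tested; red points were called in KO males and the dashed line marks equal change. Akr1d1 (5.98 and 5.91), Fetub (4.12 and 3.71) and Acan (-2.88 and -2.59) lie near the line, while Akr1c18 (4.00 and 8.11) and Acpp (0.65 and 3.08) lie above it and Bpifc (3.14 and 0.35) and Ceacam1 (1.48 and -0.02) below.

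The test of the difference between the effects in KO and WT males called 4 genes (0.0278%). Of these, 3 had a higher value in KO males (0.0208%) and 1 a lower one (0.00694%). WT intact and WT GDX males also differed in Cre and floxed alleles, so gonadectomy and genotype cannot be told apart in the WT effect. Bpifc, of a family of lipid-binding proteins, was at 4.78, 3.89, 3.96 and 4.38 in intact and 6.28, 7.00, 8.10 and 8.18 in GDX KO males, and at means of 3.81 and 4.16 in WT males (difference of effects 2.79 ± 0.43, adjusted p 0.0117). Ceacam1, a cell adhesion receptor, was at 10.06, 9.36, 9.48 and 9.79 in intact and 10.75, 11.05, 11.29 and 11.52 in GDX KO males and did not differ beyond its error in WT males, at 9.62 and 9.60 (difference of effects 1.5 ± 0.25, adjusted p 0.02). For both the KO arrays did not overlap, and KO females stood at 8.36 and 11.56, near the KO GDX males. Acpp, prostatic acid phosphatase, one of the 12 listed androgen response genes, went the other way: 5.99, 5.54, 5.31 and 5.74 in intact and 6.58, 6.57, 5.92 and 6.10 in GDX KO males (0.65 ± 0.26, adjusted p 0.0953), but 5.39 and 8.46 in WT males (difference of effects -2.42 ± 0.37, adjusted p 0.0117). Eda, ectodysplasin, was at 7.00 to 7.17 in intact and 6.97 to 7.25 in GDX KO males and fell by 0.59 ± 0.08 in WT males (difference of effects 0.64 ± 0.11, adjusted p 0.02). The count of 4 was 88 without KO GDX array 1 and 30 without WT GDX array 1, the 2 lists sharing 19 genes that include these 4, and 1361 genes had an unadjusted p under 0.05. It was 7 without intact KO array 2, and 2 without intact KO array 3, WT GDX array 2, KO GDX array 3 or KO GDX array 4. Hdc, histidine decarboxylase, fell just short (difference of effects 1.66 ± 0.30, adjusted p 0.0526), rising by 1.01 ± 0.21 in KO males and standing at -0.65 ± 0.21 in WT males. For Hsd3b6, Aldh1a1 and Ly6d the larger falls in KO than in WT males did not pass the test of the difference (adjusted p 0.46, 0.295 and 0.212).

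**Figure D3:**
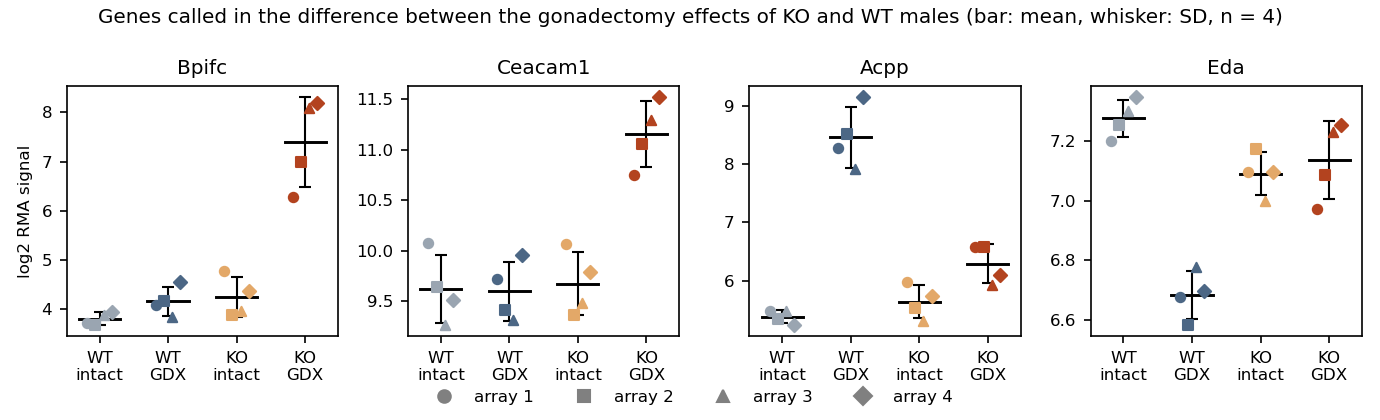
Log2 RMA signal (vertical axis, a separate scale for each gene) in each array of the 4 male groups for the 4 genes called in the difference between the gonadectomy effects of KO and WT males; bars are means, whiskers SD, n = 4. Bpifc and Ceacam1 were high in KO GDX males alone among the 4 groups (means 7.39 and 11.15), Acpp in WT GDX males (mean 8.46), and Eda was lowest in WT GDX males (mean 6.68).

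The sex difference of WT mice also shares no array with the comparison. The test between the WT sexes called 7.75% of genes in either direction, against 15.4% with gonadectomy of KO males. By direction, 3.73% stood higher and 4.02% lower in WT females, against 6.85% that rose and 8.59% that fell after gonadectomy of KO males. Outside the X and Y chromosomes 509 genes were higher and 554 lower in WT females than in WT intact males. Of the 509, 234 rose with gonadectomy of KO males and 3 fell, 46.0% of the female-high list and 24.3% of the 963 KO rises among these genes. Of the 554, 235 fell and 5 rose, 42.4% of the male-high list and 19.9% of 1181 KO falls. Serpina6 averaged 5.54, Hmox1 7.01 and Acan 4.21 in WT females, values close to those of KO GDX males (6.12, 6.97 and 4.54). Mrap, Dhcr7 and Gsta3 averaged 9.91, 10.51 and 5.77 in WT females, 10.63, 11.29 and 7.75 in KO GDX males and 11.12, 11.61 and 8.76 in KO females.

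The lists that follow are to be read against the 6.85% of all genes that rose and the 8.59% that fell. Of 12 core genes of steroid synthesis 3 rose and 0 fell (median 0.13). The largest difference among them, 1.12 ± 0.59 for Nr0b1, a repressor of steroidogenic genes, did not pass the test (adjusted p 0.212), and the enzymes Cyp11a1 (-0.08) and Cyp11b1 (0.05) and the carrier Star (0.07) did not pass the test. Mrap, the accessory protein that brings the ACTH receptor to the cell surface, was at 10.03, 9.87, 9.87 and 9.85 in intact and 10.40, 10.51, 10.80 and 10.79 in GDX KO males. It rose by 0.72 ± 0.11 (adjusted p 0.000278) and stood at 0.05 ± 0.11 in WT males, with the difference of effects at 0.67 ± 0.16 (adjusted p 0.163). Lipe, hormone-sensitive lipase, which frees cholesterol from its esters, rose by 0.55 ± 0.13, and Cyp21a1, 21-hydroxylase, by 0.19 ± 0.06 (adjusted p 0.0418), a call lost in most alternatives. Mrap was also the 1 of 7 zona fasciculata genes that rose. Of 5 genes of androgen synthesis Cyb5a, cytochrome b5, rose (0.53 ± 0.12, adjusted p 0.00521). Of 16 genes of cholesterol synthesis and uptake 15 had a positive difference (median 0.21), but Dhcr7 alone passed (0.39 ± 0.11, adjusted p 0.0179, and 0.0776, 0.0609 and 0.0607 without intact array 2, GDX array 2 or GDX array 4). Of 7 genes of steroid reduction and clearance, Hsd17b4 rose beside Akr1d1 (0.34 ± 0.09) and Hsd17b11 fell (-0.38 ± 0.11).

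Zona glomerulosa genes fell in 4 of 11, against 8.59% of all genes, with 0 rises and a median of -0.29. Beside Hsd3b6 these were Kcnk9 (-1.10 ± 0.27, adjusted p 0.00841) and Cacna1h (-0.68 ± 0.16), a potassium and a calcium channel that set the cells' excitability, and Agtr1a (-0.51 ± 0.11), the angiotensin receptor. Kcnk9 was at 9.02, 10.23, 10.18 and 10.03 in intact and 9.10, 8.56, 8.92 and 8.48 in GDX males, so that intact array 1 lay among the GDX males. Agtr1a did not overlap, with intact arrays at 9.91 to 10.34 and GDX arrays at 9.49 to 9.90. In WT males 0 of the 11 were called, where 4.5% of all genes were, and the median was -0.36. The list fell in 6 of 11 without GDX array 1 and in 2 with the medulla covariate.

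Genes known to respond to androgen in other tissues gave no common direction (1 rose and 4 fell of 12, median 0.08). Slc45a3, a prostate transporter gene, was at 7.34, 7.40, 7.34 and 7.09 in intact and 6.61, 6.24, 6.28 and 6.37 in GDX KO males and fell by 0.92 ± 0.12 (adjusted p 6.73e-05). Fkbp5, a chaperone of steroid receptors, fell by 0.53 ± 0.16 and Ndrg1 by 0.46 ± 0.14, both losing the call in several alternatives, while Mme rose. The falls numbered 1 without intact array 1 or 2, and 2 without intact array 3 or GDX array 1 or 2. Fkbp5 is also in the list of 14 glucocorticoid response genes and was the one called there. Of 10 genes of gonadal cells 0 were called, with Wt1 at 0.30 ± 0.17 (adjusted p 0.262) and 5.90, 5.89, 5.81 and 5.99 in intact against 5.96, 6.95, 5.99 and 5.89 in GDX males, so that GDX array 2 stood alone. Of 6 steroid and pituitary hormone receptors 0 were called, Esr1 differing by -0.27 ± 0.22. Inha, the inhibin alpha subunit, was the 1 of 9 inhibin and activin genes called. It was at 8.22, 8.34, 8.03 and 8.0 in intact and 7.82, 7.40, 7.38 and 7.54 in GDX KO males, falling by 0.61 ± 0.12 (adjusted p 0.00207) where WT males stood at 0.09 ± 0.12 (difference of effects adjusted p 0.178).

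Of 22 genes that make, bind or break down cyclic AMP signals, 3 rose and 4 fell, against 6.85% and 8.59% of all genes. The phosphodiesterases, which degrade cyclic AMP or cyclic GMP, moved in both directions. Pde8b, a cyclic AMP phosphodiesterase of the adrenal cortex, was at 8.91, 8.90, 8.86 and 9.07 in intact and 9.58, 9.86, 9.80 and 9.89 in GDX KO males and rose by 0.84 ± 0.11 (adjusted p 6.73e-05). Pde7a rose by 1.11 ± 0.22 (its second, dim probe set by 0.10), and Pde10a fell by 0.70 ± 0.19. Adcy6, an adenylate cyclase, fell by 0.44 ± 0.12. The catalytic subunit Prkaca (0.19) did not pass. Without intact array 3 the falls numbered 1 of 22. Of 18 CREB and immediate early targets 3 rose: Egr1 (1.22 ± 0.30), Sik1 (0.98 ± 0.27), a kinase induced by ACTH, and Fosl2 (0.64 ± 0.15). The mean over the 18 was 8.63 in GDX array 1 and 7.17 to 7.42 in the other GDX arrays, against 7.00 to 7.29 in intact males, and Egr1 was at 8.66 in GDX array 1 and 7.06 to 7.51 in the rest. Without that array Egr1 kept its call and Sik1 did not, and without GDX array 4 the rises numbered 5 of 18. The part of gland collection or handling in these genes was not tested.

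Lists of defence, growth, matrix and signalling genes are set against 6.85% of all genes higher and 8.59% lower. Of 15 genes of glutathione and oxidative defence 6 rose and 2 fell (median 0.34). In WT males 1 rose and 1 fell, where 1.94% of all genes rose and 2.55% fell. Gsta3, a glutathione transferase that also isomerises steroids, was at 6.85, 5.72, 5.80 and 5.80 in intact and 7.33, 7.61, 8.01 and 8.04 in GDX KO males and rose by 1.71 ± 0.23 (adjusted p 7.87e-05; WT 0.68 ± 0.23, adjusted p 0.104). Cat, catalase, was at 11.12 to 11.32 in intact and 11.84 to 12.28 in GDX males and rose by 0.86 ± 0.12, and Txnrd1, thioredoxin reductase, by 0.45 ± 0.08. Of 19 proliferation genes 18 had a positive difference and 3 passed: Rrm2 (0.76 ± 0.20), a ribonucleotide reductase, and the mitotic kinases Ttk (0.65 ± 0.16) and Aurkb (0.45 ± 0.12). Their mean was 6.73 in GDX array 2 and 5.88 to 5.92 in the other GDX arrays, against 5.59 to 5.97 in intact males, and the count was 1 without array 2 and 5 without GDX array 1 or intact array 4. Of 15 matrix genes Lama4 (1.12 ± 0.21), a laminin chain, and Col5a1 (0.48 ± 0.11) rose and Col4a1 (-0.37 ± 0.10) fell. The matrix mean was 9.44 in GDX array 2 and 7.78 to 8.25 in the other 7 arrays; without it 2 genes rose and 3 fell, and without GDX array 1, 4 rose and 1 fell. Of 12 WNT targets Lgr5 (-0.61 ± 0.18) and Axin2 (-0.34 ± 0.11; second probe set 0.12) fell and Tnfrsf19 (0.45 ± 0.12) rose, with 0 calls without GDX array 4 or without intact array 2, and 1 without GDX array 3 or intact array 3. Of 14 capsule genes 3 fell (6 without intact array 4), among them Rspo3 (-0.65 ± 0.13, adjusted p 0.00194), the capsular ligand that sustains WNT signalling in the outer cortex. Rspo3 was at 9.21, 9.23, 9.46 and 9.04 in intact and 9.0, 8.37, 8.34 and 8.61 in GDX KO males. Of 14 clock genes Cry2 (0.40 ± 0.13) rose and Npas2 (-0.52 ± 0.18) fell, 1 in each direction, a share near that of all genes, and both lost their call in many alternatives.

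Genes of the other cells of the gland changed in the same comparison, in which 6.85% of all genes rose and 8.59% fell. Endothelial genes fell in 8 of 12 and rose in 0 (median -0.39). In WT males 0 of 12 fell, where 2.55% of all genes fell, and the median was -0.16. Flt1, a receptor of vascular endothelial growth factor, was at 9.15, 9.02, 9.13 and 8.84 in intact and 8.51, 8.55, 8.53 and 8.49 in GDX KO males, a fall of 0.51 ± 0.10 (adjusted p 0.00141). Tek (-0.54 ± 0.12), the angiopoietin receptor, Emcn (-0.56 ± 0.13), a surface mucin of venous and capillary endothelium, and Sox17 (-0.46 ± 0.10) fell too, whereas the defining markers Pecam1 (-0.24) and Cdh5 (-0.29) did not pass. The mean of the 12 was 8.27 to 8.54 in intact and 8.04 to 8.22 in GDX KO males. Differences of effects were not past the threshold for the 4 genes named (adjusted p 0.494 for Flt1, 0.524 for Tek, 0.584 for Emcn and 0.567 for Sox17).

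Genes of the MHC class II presentation list fell in 5 of 8 and rose in 0, against 8.59% of all genes lower (median -0.38). Beside class II genes the list holds Ciita, their regulator, and the dendritic cell genes Cd209a, Flt3 and Zbtb46. In WT males 0 were called, where 4.5% of all genes were, and the median was 0.02. H2-Aa was at 8.66, 8.30, 8.72 and 8.43 in intact and 7.77, 7.28, 7.55 and 6.88 in GDX KO males and fell by 1.16 ± 0.28 (adjusted p 0.00763). H2-Ab1 (-0.91 ± 0.30), H2-Eb1 (-0.62 ± 0.17) and H2-DMa (-0.39 ± 0.09) fell too, and the difference of effects for H2-Aa, -1.17 ± 0.39, did not pass (adjusted p 0.308). The mean of the 8 was 7.36 to 7.60 in intact and 6.82 to 7.14 in GDX KO males, without overlap. The falls numbered 2 of 8 without intact array 3 or GDX array 4, 3 without GDX array 2 and 1 with the medulla covariate. Of 16 macrophage genes Trem2, a lipid-sensing receptor, alone was called, at 7.49, 6.85, 7.17 and 7.24 in intact and 7.57, 7.83, 8.42 and 8.58 in GDX KO males (0.91 ± 0.20, adjusted p 0.00343), while Adgre1 (0.05) and Csf1r (0.05) did not pass.

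In WT males 0 of 15 medullary genes were called, where 4.5% of all genes were, and the median was -0.09. In KO males medullary genes fell in 5 of 15 and rose in 0, against 8.59% of all genes lower (median -0.40). These were Npy (-0.72 ± 0.22), Ddc (-0.55 ± 0.17), which makes dopamine, Syt1 (-0.48 ± 0.16), Cyb561 (-0.43 ± 0.12) and Chgb (-0.40, adjusted p 0.0473), whereas Th (-0.17), Dbh (-0.15) and Pnmt (-0.05), the other enzymes of catecholamine synthesis, did not pass. The mean of the 15 was 9.54, 9.79, 9.78 and 9.78 in intact and 9.64, 9.21, 9.31 and 9.36 in GDX KO males, so GDX array 1 lay within the intact range. The falls numbered 0 without GDX array 2 or 3 or intact array 2 or 3, and 1 without GDX array 4 or intact array 4. The part of these differences in the other falls was not tested beyond the medulla covariate. Of 12 adipocyte genes 11 had a positive difference (median 0.86) and, where 6.85% of all genes rose, Retn (1.20 ± 0.37, adjusted p 0.0309) and Plin1 (0.60 ± 0.17, adjusted p 0.0176) rose. The adipocyte mean was 7.13 to 8.97 in intact and 8.61 to 9.39 in GDX KO males. The count was 0 without GDX array 3 or intact array 4, 1 without intact array 3 or GDX array 1 or 2, and with the adipocyte mean as a covariate 2043 of all genes were called. Hdc was the 1 of 3 mast cell genes called, while Cpa3, a mast cell protease, stood at -0.18. Of 5 Schwann cell genes 0 were called, nor was the single erythrocyte gene, Slc4a1, which was at 6.69 in GDX array 2 and 4.70 to 5.14 in the other 7 arrays.

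**Figure D4:**
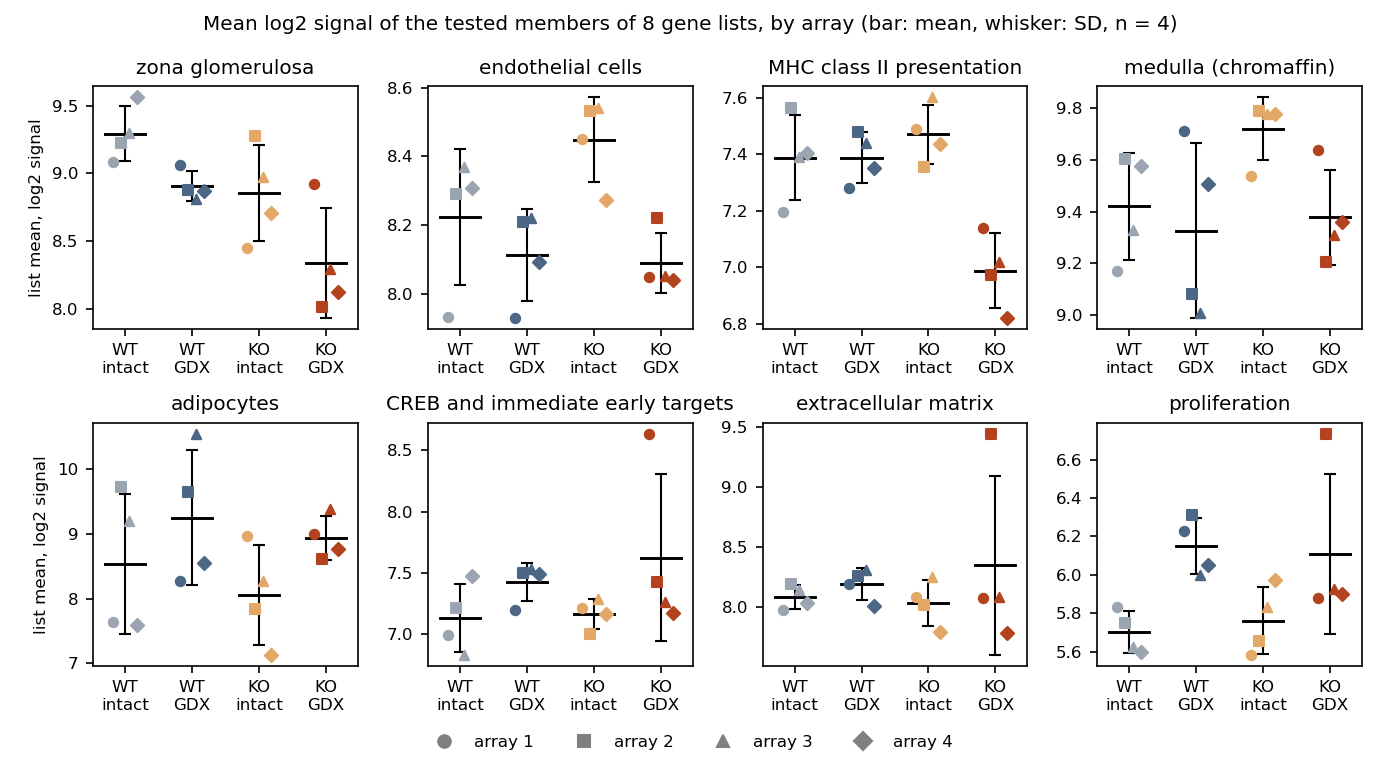
Mean log2 signal over the tested members of 8 gene lists (vertical axis, a separate scale for each list) in each array of the 4 male groups; bars are means, whiskers SD, n = 4. The mean of the MHC class II list was lower in all KO GDX arrays (6.82 to 7.14) than in all intact KO arrays (7.36 to 7.60). KO GDX array 1 stood apart in immediate early genes (8.63) and KO GDX array 2 in matrix (9.44) and proliferation (6.73) genes.

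Many microRNA genes of a single chromosomal region fell. It was picked after its values had been seen, so its counts are a description. The imprinted region between Meg3 and Mirg on chromosome 12 carries a long row of microRNA genes among non-coding transcripts, which are expressed from the maternal copy. Of 43 microRNA genes there, 33 passed the filter, and all 33 had a negative difference in KO males (median -0.64, from -0.02 for Mir666 to -1.10 for Mir376b). Of these 24 passed the test (8.59% of all genes fell), and 21 did not overlap between the groups (19.0% of all genes did not). Among the 160 tested microRNA genes elsewhere 1 rose and 16 fell (median -0.06). In WT males 13 of the 33 fell (median -0.57), where 2.55% of all genes fell.

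The sequences below show the mature microRNAs of the 5 genes of the region with the largest falls, with RefSeq coordinates in GRCm38.p6, all on the plus strand. Capitals mark the seed, bases 2 to 8, by which a microRNA pairs with its targets.
miR-376b-5p, chr12:109723471-109723492: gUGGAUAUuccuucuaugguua
miR-376b-3p, chr12:109723508-109723528: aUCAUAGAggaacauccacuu
miR-154-5p, chr12:109738438-109738459: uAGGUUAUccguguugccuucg
miR-154-3p, chr12:109738474-109738495: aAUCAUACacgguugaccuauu
miR-380-5p, chr12:109711806-109711827: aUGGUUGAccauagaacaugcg
miR-380-3p, chr12:109711842-109711863: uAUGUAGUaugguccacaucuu
miR-323-5p, chr12:109712523-109712544: aGGUGGUCcguggcgcguucgc
miR-323-3p, chr12:109712558-109712578: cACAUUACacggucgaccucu
miR-382-5p, chr12:109733781-109733802: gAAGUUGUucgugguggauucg
miR-382-3p, chr12:109733819-109733840: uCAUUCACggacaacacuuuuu
All 33 genes had mature sequences in the RefSeq table, 63 in all with 58 different seeds, 5 of them shared by 2 sequences each. Few seeds are thus shared among these 33 genes, of which 24 passed the test. Outside the region, Mirlet7c-2, a let-7 gene on chromosome 15, was among the 15 largest falls (-1.66 ± 0.34, adjusted p 0.00263), with all GDX arrays under 5; its 5p product, at chr15:85706616-85706637 on the plus strand, has the common let-7 seed.
let-7c-5p: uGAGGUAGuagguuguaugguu

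Mir376b was at 6.52, 7.19, 6.60 and 6.96 in intact and 6.43, 4.83, 5.90 and 5.69 in GDX KO males and fell by 1.10 ± 0.26 (adjusted p 0.00731). Mir154 was at 5.58, 6.12, 5.78 and 5.86 in intact and 5.61, 4.21, 4.71 and 4.58 in GDX males (-1.06 ± 0.25), with GDX array 1 within the intact range. Mir380 (-0.97 ± 0.26), Mir323 (-0.93 ± 0.22) and Mir382 (-0.91 ± 0.15) followed. Rian, a non-coding transcript of the region, fell by 0.56 ± 0.11 (adjusted p 0.00228), in WT males by 0.51, while Meg3 (-0.30, adjusted p 0.083) and Dlk1 (-0.26, adjusted p 0.315), a gene of the same domain read from the paternal copy, did not pass. The mean of the 33 genes was 6.83, 7.09, 6.91 and 6.96 in intact and 6.72, 6.02, 6.36 and 6.29 in GDX KO males, all GDX arrays below all intact ones and array 1 the closest. It was 6.79 to 7.03 in intact and 6.03 to 6.68 in GDX WT males, 6.18 to 6.49 in WT females and 5.65 to 5.84 in KO females. Without GDX array 2, 14 of the 33 fell, without intact array 2, 15, and with the medulla covariate 7 (median -0.42). Whether these probe sets read the mature microRNA, its precursor or the host transcript was not tested.

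**Figure D5:**
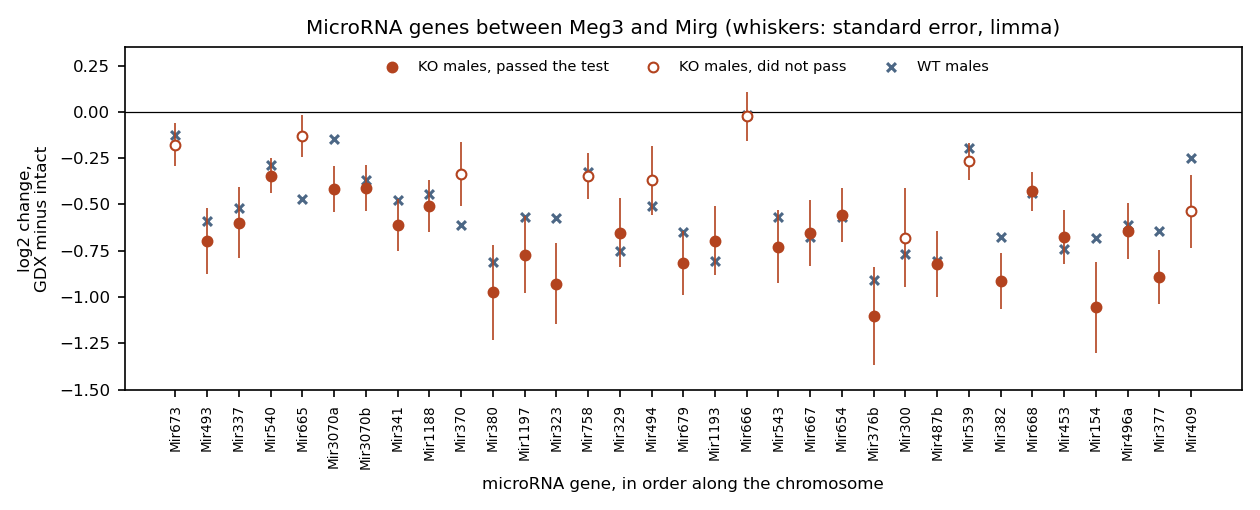
Log2 change with gonadectomy (vertical axis) of the 33 tested microRNA genes between Meg3 and Mirg, in their order along chromosome 12 (horizontal axis, not to scale); circles are KO males (filled where the test was passed) with the limma standard error as whisker, crosses WT males. All 33 circles lie below 0, 24 of them filled, and Mir376b is the lowest at -1.10.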

How the data were processed

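RNA of whole mouse adrenals was measured on Affymetrix gene arrays, 24 in 6 groups of 4. The authors deposited log2 values per probe set, made by RMA per the submitters' processing notes; the sources used here give no genome build. Of 32202 probe sets, 22943 named 1 gene symbol; for a gene with several, the brightest was used. Genes over log2 5 in at least 4 arrays were tested (14411). A single linear model of the 6 group means was fitted with limma 3.58.1 in R 4.3.3 (lmFit and eBayes), and p-values were adjusted by Benjamini and Hochberg over all genes, with a threshold of 0.05. The steps were tested on simulated data. Groups came from the sample labels, which name no batches.

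Of 397 entries in 29 gene lists, 348 matched a gene and 314 were tested. The members and lists were chosen with earlier results of these data known. Genes named are the deleted and the Cre-bearing gene, the 15 largest rises and 15 largest falls among called genes without overlap (predicted symbols aside), those called in the difference of effects, and up to 4 called members of each list, or the 2 largest changes where none was called. Other called members are only counted; defining markers of cell types and a few further list members are named beside them, and Hdc and the microRNA region were singled out after their values were seen. Alternatives were other filters, probe set rules, normalization and priors, the replicate number as a block, covariates, and leaving out each array.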

Additional observations from a re-analysis of the deposited data

Results flagged for a closer look

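Among 254 sets of 4 values examined in KO males, 20 held an array far from the other 3 (Dixon's test, 7.87%); chance gives about 1 in 20. In intact KO males, array 1 was apart for Cyp2f2 (6.00), Mrap (10.03), Kcnk9 (9.02) and Gsta3 (6.85), and for the means of the androgen synthesis (6.53) and medulla (9.54) lists. Array 3 was apart for the mean of the protein kinase A and phosphodiesterase list (7.81), and array 4 for Syt1 (8.71) and Emcn (10.20). In KO GDX males, array 1 was apart for Agtr1a (9.90), Lama4 (7.69), Cry2 (7.67) and the androgen synthesis mean (6.89). Array 2 was apart for Wt1 (6.95), Ndrg1 (8.74), Rrm2 (6.48), Slc4a1 (6.69) and the proliferation (6.73) and endothelial (8.22) means, and array 4 for Retn (10.05).

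The change from intact to GDX differed between KO and WT males, by limma's test of the difference, for Bpifc (2.79), Acpp (-2.42), Ceacam1 (1.5) and Eda (0.64). In the WT males gonadectomy cannot be told apart from the differing Cre and floxed alleles of the intact and GDX groups.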

How the results depend on the processing

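The 2225 genes called with gonadectomy of KO males became 989 with the medulla covariate (529 higher, 460 lower) and 1374 to 2662 without 1 array (634 to 1137 higher, 734 to 1525 lower). In WT males 648 calls became 149 with these groups alone and 292 to 788 without 1 array. The difference of effects had 9 calls with its groups alone, 2 with the medulla and 12 with the adipocyte covariate, and 2 to 88 without 1 array. Of 86 named genes called in KO males, 53 kept the call in all 17 alternatives; 31 lost it with the medulla covariate, 15 with the groups alone and 4 to 18 without 1 array; the cause was not tested. The sex difference of WT mice had 757 to 1316 calls without 1 WT intact male array, against 1117; female arrays were not left out. Genes that did not pass changed sign with the adipocyte covariate (Cyp11b2 0.027, Ghr -0.10) and with the medulla covariate (Eda -0.014, Cd3e -0.14, Nkg7 -0.0091). Without 1 array Cd3e ran from -0.080 (without KO GDX array 2) to 0.11 and Nkg7 from -0.024 (without intact KO array 4) to 0.075. With the replicate number as a block, 2091 genes were called in KO males, 588 in WT males, 1043 between WT sexes and 5 in the difference of effects, and Npas2, Ddc, Syt1 and H2-Ab1 lost their call. Same-numbered KO arrays deviated with correlations of -0.24, -0.06, -0.16 and 0.16 and same-numbered WT arrays with 0.15, 0.17, 0.24 and 0.093; neither set was over 0.1 in every pair, so the numbers were not taken as pairs. Values under log2 5 are near background and limit the size of changes there.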

Other observations

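Groups of genes assembled after values had been seen are given here as descriptions. In KO GDX males 6.85% of all genes were higher and 8.59% lower than in intact KO males. The shares with gonadectomy of WT males were 1.94% higher and 2.55% lower. Of 18 retinoid genes 6 rose and 1 fell (median 0.13), against 1 and 0 in WT males (median -0.07). Rdh1, a retinol dehydrogenase, was at 5.94, 7.60, 6.82 and 6.33 in intact and 8.89, 8.75, 8.98 and 8.78 in GDX KO males and rose by 2.17 ± 0.50 (limma adjusted p 0.00594), with -0.09 in WT males. The groups did not overlap for Rdh1. Rdh9 (1.26), Adh7 (1.25), Adh1 (0.84), Dhrs3 (0.56) and Rdh11 (0.40) also rose, opposite to Aldh1a1 (-2.67). Without 1 array 2 to 5 of the 18 rose.

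Of 20 genes of fatty acid and glycerolipid synthesis 5 rose and 2 fell (median 0.37), against 1 and 2 in WT males (median 0.27). Gpam, which starts glycerolipid synthesis, rose by 2.02 ± 0.25 (limma adjusted p 3.3e-05; WT 1.33), Acaca, the enzyme that makes malonyl-CoA, by 1.65 and Agpat2 by 1.4. Fasn (1.12, adjusted p 0.063) and Scd1 (0.97, adjusted p 0.054) did not pass. The adipocyte list rose in 2 of 12 genes in the same arrays. With the adipocyte mean as a covariate 7 of the 20 rose and 2 fell, with a median of 0.15, and with the medulla covariate 3 rose and 2 fell, with a median of 0.19.

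Small nucleolar RNA genes rose in 5 and fell in 23 of 66 (median -0.20), against 1 and 0 in WT males (median -0.01). Their mean was 8.31 to 8.45 in intact and 8.14 to 8.19 in GDX KO males, and 15 to 22 of them fell without 1 array. Potassium channel genes rose in 2 and fell in 9 of 66 (median -0.00), with Kcnt1 (-0.88), Kcnmb4 (-0.87) and Kcnab3 (-0.79) beside Kcnk1 and Kcnk9, and Kcnk5 (0.96) and Kcnh1 (0.91) among the rises. With the medulla covariate 4 potassium channel genes fell.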
